A study of Mus musculus with 2 samples.

Results

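The genes described here encode the enzymes that a cell uses against reactive oxygen species: superoxide dismutases, catalase, peroxiredoxins, glutathione peroxidases and transferases, the thioredoxin and glutaredoxin systems, and the regulators Nfe2l2 and Keap1 with 3 of their target or partner enzymes. They were chosen by gene symbol alone, by a rule that uses no signal, though with earlier results of these data known. The rule took 120 of the 45101 probe sets on the array, which stand for 65 of the 18194 genes that could be named from a probe set with 1 symbol. It goes by the name of a gene, so it also takes thioredoxin-domain proteins whose known work is outside antioxidant defence, such as the splicing factor Txnl4a.

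The samples were 2 single cells from dissociated retinas of CD1 mice, an albino outbred strain, with no transgene or treatment named: 1 from the day of birth, postnatal day 0 (P0), and 1 from an embryo of day 12.5 (E12.5). The submitters assigned both to the developing ciliary body and iris, the rim of the optic cup, from their expression after the arrays had been read. Below, "at P0" and "at E12.5" refer to these single cells. Each cell was measured on its own Affymetrix array after reverse transcription from the poly(A) tail and PCR amplification. With 1 cell at each age there is no replicate check, so a difference given below holds for the 2 cells alone, without standard error or p-value, and the number of arrays limits the precision.

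Superoxide dismutases turn superoxide into hydrogen peroxide, which catalase, peroxiredoxins and glutathione peroxidases then break down to water. The peroxidases are recharged by glutathione or by thioredoxin, and those in turn by glutathione reductase and the thioredoxin reductases, with NADPH as the source of electrons. The transcription factor NRF2, encoded by Nfe2l2, switches on many of these genes through a promoter element called the antioxidant response element, and KEAP1 holds NRF2 back by presenting it for degradation. The epithelium of the adult ciliary body, which secretes aqueous humour, is known to be rich in glutathione and its enzymes.

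Values are MAS5 signals on a linear scale. A gene was called above background where its signal exceeded the 99th percentile of 176 probe sets for genes not known from the eye, such as olfactory receptors and keratin-associated proteins, which gave a limit of 349 at P0 and 258 at E12.5. Of several probe sets for a gene, the one brightest on average (mean log2 signal over both cells) is reported. A gene was called higher in a cell where it was above background there and at least 4-fold higher once signals under a limit had been set to that limit. A fold whose dimmer signal was under its limit is a lower bound, written "at least". A signal below background was not detected, which does not show that the transcript was absent.

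Cell type markers gave the following picture. Of 20 ciliary margin genes, 8 were above background at P0 and 9 at E12.5. None of 7 erythroid genes, globins included, was above it in either cell, with summed signals of 330.7 and 338.7 at P0 and at E12.5, and the same held for 10 microglial, 8 endothelial and 5 photoreceptor genes. Of 14 lens, 10 pigment and 6 ganglion cell genes none was above it at P0, and 1, 2 and 1 of them were at E12.5. Glial genes were above background more often at P0, 8 of 10 against 4 of 10 at E12.5, with summed signals of 68560 and 43170 in that order. Of 8 mesenchymal genes, Col1a2 (2653) and Pdgfra (3088) were above it at P0 and none at E12.5 (summed signals of 6153 at P0 and 559.4 at E12.5). The part of these marker differences in the results below was not tested.

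Promoter elements of 2 kinds were searched for, and sequences that hold them in members called at least 4-fold higher in 1 cell are shown to make the letters visible. Promoters are those of RefSeq on assembly GRCm38.p6, 300 bases that run from 250 before the gene start, 5′ to 3′ on the strand of the gene. The first shows the promoter of Txnip, which was at least 39.3-fold higher at P0, at chr3:96557707-96558006 on the plus strand. Capitals mark a match to CACGNG, any 5 bases and CACGNG again, the paired E-box layout of the carbohydrate response element through which glucose-sensing factors are known to drive Txnip.
Txnip: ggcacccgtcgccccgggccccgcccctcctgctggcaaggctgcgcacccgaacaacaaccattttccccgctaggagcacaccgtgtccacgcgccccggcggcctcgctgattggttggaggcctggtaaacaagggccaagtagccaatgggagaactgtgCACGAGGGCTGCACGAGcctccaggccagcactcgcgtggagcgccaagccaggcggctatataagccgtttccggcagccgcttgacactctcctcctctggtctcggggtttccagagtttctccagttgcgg
The other 3 hold the antioxidant response element core, TGACNNNGC or its reverse complement, in capitals. They belong to members that differed at least 4-fold: Gstm7 (chr3:107931565-107931864, minus strand) was higher at P0, and Txnrd1 (chr10:82858956-82859255, plus strand) and Nfe2l2 (chr2:75704614-75704913, minus strand) were higher at E12.5.
Gstm7: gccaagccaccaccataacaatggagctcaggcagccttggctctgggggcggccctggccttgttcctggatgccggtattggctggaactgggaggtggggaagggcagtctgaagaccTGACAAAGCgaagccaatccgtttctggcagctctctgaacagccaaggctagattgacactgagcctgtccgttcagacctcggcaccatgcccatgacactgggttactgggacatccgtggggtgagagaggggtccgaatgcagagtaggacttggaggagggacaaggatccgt
Txnrd1: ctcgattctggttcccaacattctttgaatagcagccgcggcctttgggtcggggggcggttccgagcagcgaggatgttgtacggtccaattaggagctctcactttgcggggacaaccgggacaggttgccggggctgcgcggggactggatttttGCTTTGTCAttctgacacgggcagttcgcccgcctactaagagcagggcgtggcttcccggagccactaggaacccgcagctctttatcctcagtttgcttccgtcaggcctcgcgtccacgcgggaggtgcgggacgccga
Nfe2l2: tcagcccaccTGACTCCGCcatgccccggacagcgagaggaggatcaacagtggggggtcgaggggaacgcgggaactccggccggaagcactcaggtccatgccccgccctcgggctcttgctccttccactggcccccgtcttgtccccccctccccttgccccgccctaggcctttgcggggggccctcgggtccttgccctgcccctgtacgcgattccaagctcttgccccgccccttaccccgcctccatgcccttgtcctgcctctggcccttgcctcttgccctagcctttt
The Gstm7 and Txnrd1 matches have the same 9 letters, TGACAAAGC, on opposite strands of their promoters, and the cells differed in opposite directions for these genes. Searched on both strands, the paired E-box occurred in 16 of 32851 promoters of the table (0.0487%) and in 1 of 80 promoters of members, that of Txnip, where it began 85 bases before the gene start. This element was chosen with the values of Txnip known. The antioxidant response element core occurred in 12.4% of all promoters and in 10 of 80 promoters of members (12.5%). Of the 57 members with a promoter in the table, 10 held it (17.5%), against 16.1% of the 14369 genes on the array with one. It was found for 1 of 8 members higher at P0 and 2 of 8 higher at E12.5, and in none of the 10 promoters did it overlap the AP-1 site TGANTCA. These matches are letters in a window and name no factor bound there.

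Most of the genes were either shared or undetected, and those that differed were divided evenly between the cells. Of the 65 genes, 34 were above background at P0 (52.3%, against 28.4% of all named genes) and 36 at E12.5 (55.4%, against 30.3%). In both cells 24 were (36.9%, against 18.7%), and 19 were above it in neither. At least 4-fold higher at P0 were 9 members (13.8%), where 9.24% of all named genes were, and at least 4-fold higher at E12.5 were another 9 (13.8%), where 7.3% were. At least 1 cell read 46 of the 65 members, and 40.0% of all named genes. A call needs a signal above background, so the shares called also follow the number of genes read. Of the genes read, 9 of 46 members and 1681 of 7270 named genes were called higher at P0. At E12.5 these were 9 of 46 and 1328 of 7270. Over the 24 members above background in both cells the median log2 ratio (P0 over E12.5) was -0.52, where it was 0.00 over all 3395 such genes, and 15 of the 24 had the larger signal at E12.5. This shift depended on the probe set reported: with log2 signals averaged over the probe sets of a gene, the median over the members measured was 0.07, 10 of 19 members above background in both cells had the larger signal at P0, and 9 members were called higher at P0 and 4 at E12.5. With every probe set counted the median was -0.11, and with quantile normalisation -0.24. The numbers above background depended on the limit. With the 95th percentile as the limit (90.9 at P0, 112 at E12.5), 43 members were above it at P0, 40 at E12.5 and 32 in both. The shares of all named genes under that limit are not given here. With both arrays scaled on the spiked control transcripts of the hybridisation (the spike-in scaling), the median ratio of all genes above background in both cells moved from 0.00 to -0.87, and 6 members were called higher at P0 and 14 at E12.5. Over all named genes 1043 were called at P0 and 2122 at E12.5 by the spike-in scaling, and 863 and 700 by the average over probe sets. Under the spike-in scaling Gpx4, Gstm5, Txndc5 and Txndc15, whose reported ratios favoured P0 by less than 2-fold, were higher at E12.5.

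**Figure D1:**
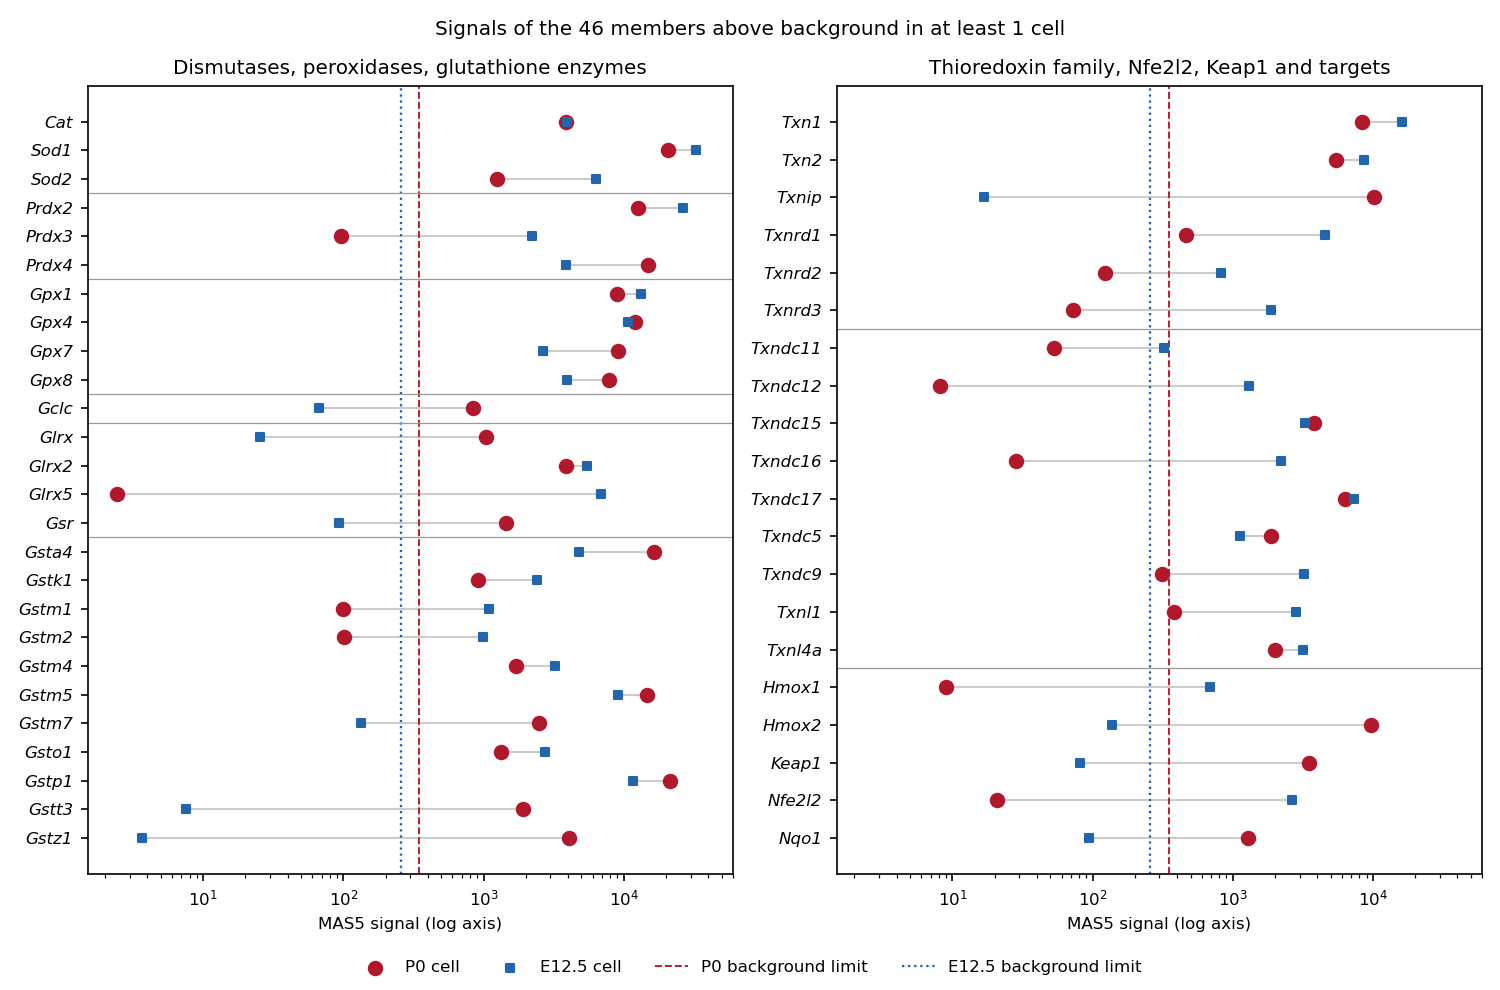
Signals of the 46 members above background in at least 1 cell, by gene (rows) and MAS5 signal on a log axis, with a circle for the P0 cell, a square for the E12.5 cell and dashed or dotted lines at the background limits of 349 and 258. Horizontal lines separate the roles. Squares lie on circles for Cat and Gpx4, while Txnip, Glrx5, Gstz1 and Hmox2 have their symbols far apart and on opposite sides of the limits.

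Sod1 and catalase, which act early on superoxide and peroxide, were read in both cells. Sod1, the copper-zinc dismutase of the cytosol, had a signal of 20781 at P0 and 32592 at E12.5. Catalase (Cat), the peroxisomal enzyme that splits hydrogen peroxide, had 3862 and 3956 at P0 and at E12.5, 1.02-fold apart. Both genes were thus well above background in each cell and less than 4-fold apart. A second Cat probe set gave 4922 at P0 and 2962 at E12.5. For Sod1, 1 further probe set followed the reported one (9848 at P0 and 23204 at E12.5), and another lay above background at P0 alone (879 against 70.3). The extracellular dismutase gene Sod3 was above background in neither cell.

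Sod2, the manganese dismutase of mitochondria, gave opposite answers by probe set. The reported probe set had 1252 at P0 and 6322 at E12.5, 5.05-fold higher at E12.5. A second probe set had 8849 at P0 against 64.2 at E12.5, and another had 6944 at P0 against 12.4 at E12.5, with bounds of 34.3-fold and 26.9-fold in favour of P0. The last was above background in neither cell. Each cell thus had Sod2 signal above background, and its direction could not be set. Sod2 was the only one of the 9 members called higher at E12.5 for which another probe set was called the opposite way.

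Peroxiredoxins, peroxidases recharged mainly by thioredoxin, did not share one direction. Prdx4, the form of the endoplasmic reticulum, had 14856 at P0 and 3899 at E12.5, 3.81-fold higher at P0 and the nearest miss of the 4-fold rule. A second probe set gave 3.82-fold and another 6.96-fold in the same direction. Prdx4 passed 4-fold with quantile normalisation (log2 ratio of 2.06) and with the mean over probe sets (2.27). Under the spike-in scaling its log2 ratio was 1.06. Prdx2, a cytosolic form, had 12669 at P0 and 26469 at E12.5, 2.09-fold higher at E12.5, while a second probe set differed by 1.08-fold. Prdx3, the mitochondrial form, was not above background at P0 (96.3) and had 2202 at E12.5, at least 6.31-fold higher there. These 3 genes were the only peroxiredoxins with a probe set of a single symbol.

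Of 8 glutathione peroxidases, 4 were above background in both cells and 4 in neither, and no member of the family differed by 4-fold. Gpx1, the selenium enzyme of cytosol and mitochondria, had 9018 at P0 and 13218 at E12.5. Gpx4, the selenium enzyme that reduces lipid peroxides in membranes, had 12108 at P0 and 10675 at E12.5. Both genes were within 1.47-fold. Gpx7 and Gpx8, which lie in the endoplasmic reticulum and carry cysteine in place of selenocysteine, were higher at P0 by 3.43-fold (9098 against 2656) and 2.00-fold (7913 against 3965). Gpx2, Gpx3, Gpx5 and Gpx6 were below background in both, the largest signal among them being 136 for Gpx3 at E12.5.

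Of the genes that make, recharge or use glutathione on proteins, Gclc, Gsr and Glrx were above background at P0 alone. Gclc, the catalytic subunit of the enzyme that starts glutathione synthesis, had 840 at P0 and was not above background at E12.5 (66.6), at least 3.26-fold higher at P0. Its partner Gclm was below background in both, as was a second Gclc probe set (310 at P0, 3.76 at E12.5). Glutathione reductase (Gsr), which uses NADPH to recharge glutathione, had 1446 at P0 against 93.0 at E12.5, at least 5.60-fold higher at P0, and its second probe set gave at least 4.22-fold. Glrx, the cytosolic glutaredoxin that removes glutathione from proteins, had 1041 at P0 and 25.2 at E12.5, at least 4.03-fold higher at P0 and the closest of the called members to the 4-fold rule. With its second probe set it was at least 4.71-fold. Scaled to the spike-ins, Gsr and Glrx kept their direction and no longer reached 4-fold (log2 ratios of 1.61 and 1.14). For Gclc, which was not called, the log2 ratio was 0.83 under this scaling.

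The glutaredoxins of mitochondria behaved otherwise. Glrx5, which takes part in iron-sulfur cluster assembly, had 2.41 at P0 and 6861 at E12.5, at least 19.7-fold higher at E12.5. It was read by 1 probe set. Glrx2, which also has a mitochondrial form, had 3894 at P0 and 5473 at E12.5, and 1 of its 2 further probe sets had the opposite sign. The only probe set of Glrx3 with 1 symbol was below background in both cells.

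Glutathione transferases, which join glutathione to reactive molecules, were measured in part, with 9 of 20 above background at P0 (28.4% of all named genes) and 8 at E12.5 (30.3%). At least 4-fold higher at P0 were 3 of them (9.24% of all named genes), and 0 were at E12.5 (7.3%), or 3 under the spike-in scaling. Gstz1, which also acts in the breakdown of tyrosine, had 4059 at P0 and 3.68 at E12.5, at least 15.7-fold higher at P0. Gstm7, of the mu class, had 2474 at P0 against 134 at E12.5, at least 9.59-fold higher at P0, and a second probe set was above background in neither. Gstt3, of the theta class, had 1900 at P0 and 7.48 at E12.5, at least 7.36-fold higher at P0.

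The transferases read in both cells were closer together. Gstp1, the pi class enzyme, had 21379 at P0 and 11631 at E12.5. Gsta4, the alpha class enzyme that clears the lipid peroxidation product 4-hydroxynonenal, had 16486 at P0 and 4792 at E12.5, 3.44-fold higher at P0. Gstm5 had 14594 at P0 and 9076 at E12.5. These 3 were on the P0 side as reported. Under the spike-in scaling their log2 ratios were 0.01 (Gstp1), 0.91 (Gsta4) and -0.19 (Gstm5). On the E12.5 side were 3 others: Gstm4 (1698 at P0, 3226 at E12.5), Gstk1 of the kappa class (914 and 2399 in that order) and Gsto1 of the omega class (1336 and 2724 in that order). A second Gsto1 probe set went the other way, with 1584 at P0 and 327 at E12.5, 4.85-fold higher at P0. Gstm1 (99.6 at P0, 1098 at E12.5) and Gstm2 (100.3 and 984 in that order) were above background at E12.5 alone, with bounds of 3.14-fold (Gstm1) and 2.82-fold (Gstm2). A second Gstm1 probe set had the same sign (13.8 at P0, 993 at E12.5), and its remaining ones were below background in both cells. With the mean over probe sets the log2 ratio of Gstm1 was -0.16.

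The 7 mu class genes lie side by side on chromosome 3 and resemble each other in sequence, so probe sets of Gstm1, Gstm2 and their neighbours may share signal. Within this cluster Gstm7 was on the P0 side and Gstm1 and Gstm2 on the E12.5 side. The remaining 9 transferase genes (Gsta2, Gsta3, Gstm3, Gstm6, Gsto2, Gstp3, Gstt1, Gstt2 and Gstt4) were above background in neither cell.

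**Figure D2:**
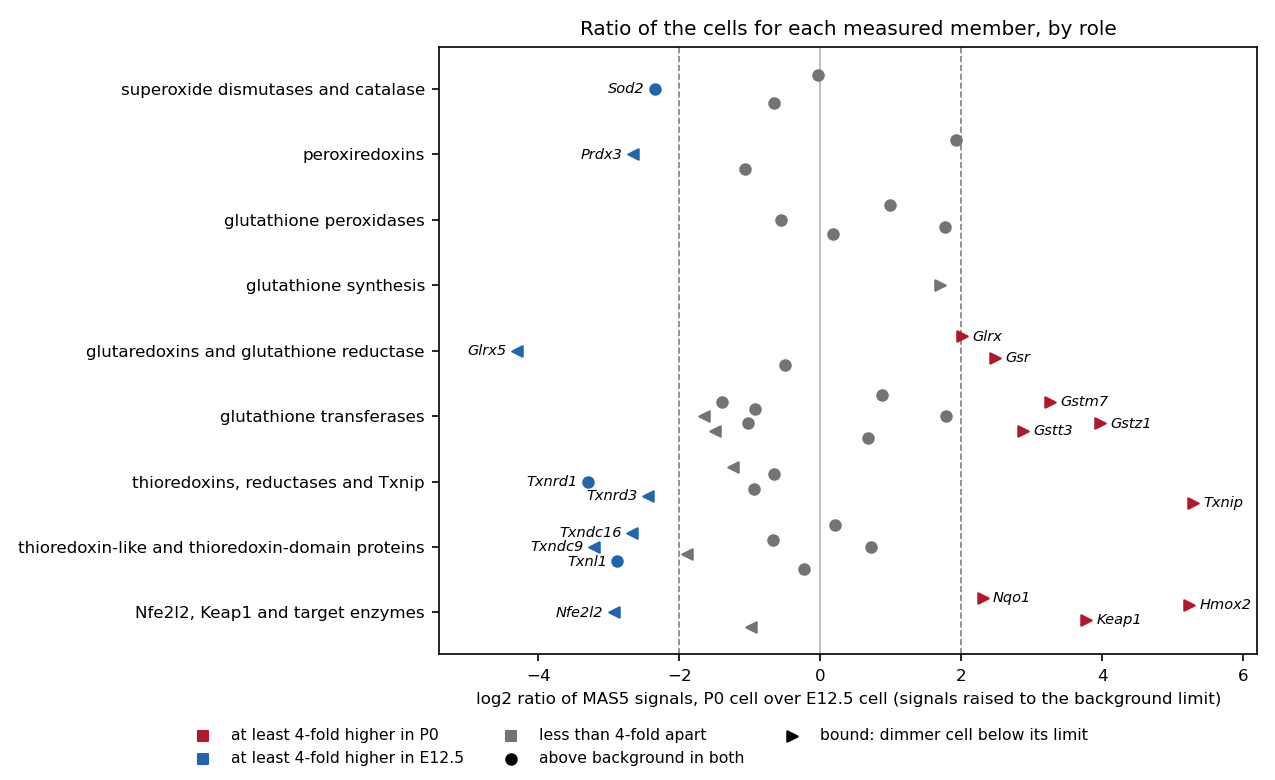
Log2 ratios, P0 over E12.5, for 45 of the 46 measured members, by role, with dashed lines at 4-fold. Circles are genes above background in both cells, triangles are lower bounds that point away from 0, and named genes are those called. The members called higher in P0 are in 4 roles and those called higher in E12.5 in 6, and glutathione peroxidases have none of either.

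Thioredoxin itself was read in both cells, its reductases mainly at E12.5, and its inhibitor at P0. Txn1, the cytosolic thioredoxin, had 8335 at P0 and 15999 at E12.5. Txn2, the mitochondrial one, had 5490 at P0 and 8667 at E12.5, with 2 further probe sets of the same sign. Neither reached 4-fold.

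All 3 thioredoxin reductases, selenium enzymes that recharge thioredoxin with NADPH, were on the E12.5 side. Txnrd1, of the cytosol, had 463 at P0 and 4552 at E12.5, 9.84-fold higher at E12.5, and its 2 further probe sets were above background in neither. Txnrd3 had 72.0 at P0 and 1889 at E12.5, at least 5.41-fold higher at E12.5. A second Txnrd3 probe set (11.7 at P0, 502 at E12.5) had the same sign with a bound of 1.44-fold. Txnrd2, of mitochondria, had 122 at P0 and 818 at E12.5, at least 2.34-fold higher at E12.5. The further Txnrd2 probe sets and the remaining Txnrd3 probe set were above background in neither cell. With log2 signals averaged over probe sets, all 3 reductases were below background in both cells.

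Txnip, which binds and inhibits thioredoxin and restrains glucose uptake, had 10145 at P0 and 16.7 at E12.5. It was at least 39.3-fold higher at P0. Its second probe set had 747 at P0 and 142 at E12.5, with a bound of 2.89-fold on the same side.

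Of 12 thioredoxin-like and thioredoxin-domain proteins, 5 were above background at P0 (28.4% of all named genes were) and 9 at E12.5 (30.3%). None was called higher at P0 (9.24%) and 3 were at E12.5 (7.3%). Txndc9, a partner of the chaperonin that folds tubulin and actin, had 311 at P0, just under the limit of 349, and 3234 at E12.5, at least 9.26-fold higher at E12.5. Txnl1, a redox protein of the proteasome, had 383 at P0, just over the limit, and 2813 at E12.5, 7.34-fold higher at E12.5. A second probe set of each was also called, at least 11.9-fold for Txndc9 and at least 8.72-fold for Txnl1. The remaining Txnl1 probe sets were below background in both cells. Txndc16, of the endoplasmic reticulum, had 28.4 at P0 and 2221 at E12.5, at least 6.36-fold higher at E12.5.

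Other thioredoxin-domain proteins of the endoplasmic reticulum did not share one direction. Txndc12 had 8.15 at P0 and 1296 at E12.5, at least 3.71-fold higher at E12.5. Txndc11 was just above background at E12.5 (322) and below it at P0 (53.0), too near the limits for a fold. Txndc5 had 1862 at P0 and 1126 at E12.5, and its second probe set gave 5.03-fold in favour of the P0 cell. Txndc15 (3789 at P0, 3266 at E12.5), the cytosolic Txndc17 (6280 and 7374 in that order) and Txnl4a (1987 and 3147 in that order) were within 1.58-fold. A second Txnl4a probe set was above background at E12.5 alone (86.2 at P0, 1244 at E12.5), at least 3.56-fold higher there. Txndc2 and Txndc8, known from the testis, and Txnl4b were below background in both cells.

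**Figure D3:**
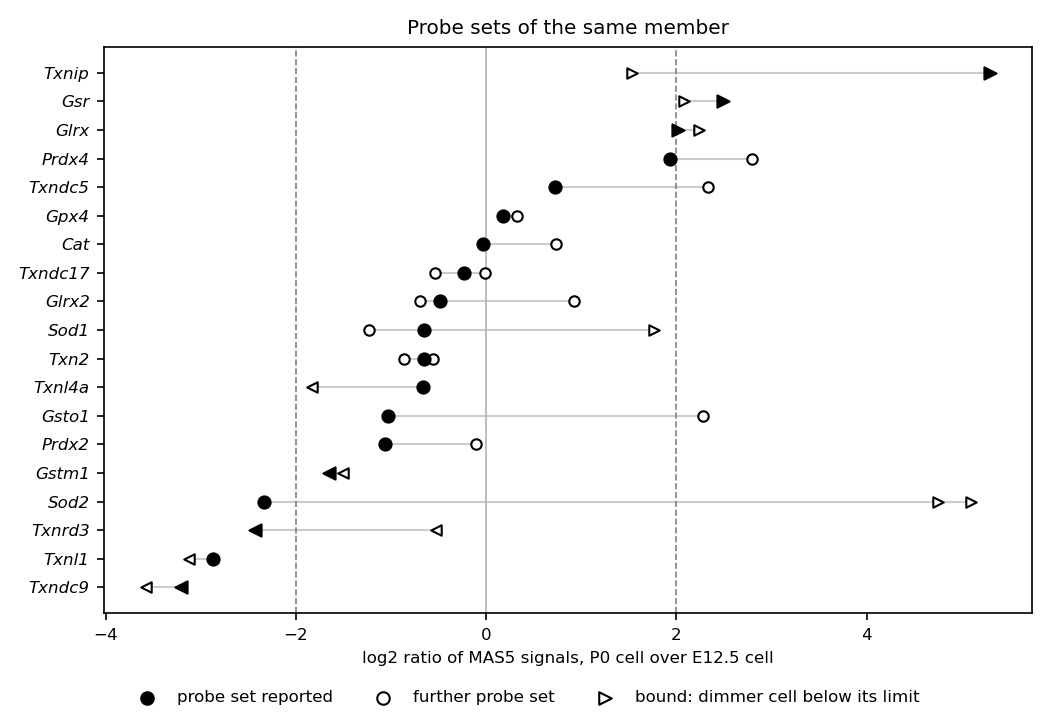
Log2 ratios, P0 over E12.5, for 19 members with at least 2 probe sets that give a ratio, with the reported probe set filled, further ones open, and triangles for lower bounds. Dashed lines mark 4-fold. Sod2 spans both sides beyond 4-fold, Gsto1 crosses from -1.03 to 2.28, and Gsr, Glrx, Txnl1 and Txndc9 lie beyond 4-fold with each probe set shown.

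NRF2 regulators and their enzymes were both divided between the cells, with no gene of the 5 above background in both. Nfe2l2 and Hmox1 were above it at E12.5 alone, and Keap1, Nqo1 and Hmox2 at P0 alone. Nfe2l2 had 20.8 at P0 and 2655 at E12.5, at least 7.61-fold higher at E12.5. Keap1, its inhibitor, had 3521 at P0 and 81.7 at E12.5, at least 13.6-fold higher at P0. For each of these genes a second probe set was below background in both cells, so the call rests on 1 probe set.

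Nqo1, a quinone reductase and textbook NRF2 target, had 1278 at P0 and 94.5 at E12.5, at least 4.95-fold higher at P0, though not 4-fold under the spike-in scaling (log2 ratio of 1.44). Hmox1, the heme oxygenase that NRF2 and stress are known to induce, had 9.04 at P0 and 687 at E12.5, at least 1.97-fold higher at E12.5. Hmox2, the constitutive heme oxygenase, had 9765 at P0 and 137 at E12.5, at least 37.8-fold higher at P0. The 2 heme oxygenases were thus read in different cells, each by 1 probe set.

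Different probe sets of a gene show how far its ratio depends on the probe set. They hold no variation between cells of the same age. Among probe sets above background in both cells, log2 ratios differed within a gene with an SD of 0.84 for 10 members and 0.83 for all 975 genes. This SD leaves out probe sets below background in a cell, such as those of Sod2 that favoured P0. It thus does not cover the 15 of the 18 called members whose dimmer cell was below its limit. What makes up the SD was not tested. Of the 18 members called, 7 had another measured probe set: for Glrx, Gsr, Txnl1 and Txndc9 at least 1 of these was called the same way, for Txnip and Txnrd3 it had the same sign, and for Sod2 it was opposite. Over all named genes, 987 called genes had another measured probe set, and for 554 at least 1 was called the same way. The calls of Txnip, Hmox2, Gstz1 and Gstt3 at P0 and of Glrx5, Txndc9, Txndc16 and Prdx3 at E12.5 were made under each alternative setting tried that kept the 4-fold rule. With 8-fold in its place, Txnip, Hmox2, Gstz1, Glrx5 and Txndc9 were still called, and Gstt3, Txndc16 and Prdx3 were not. Hmox2, Gstz1, Gstt3, Glrx5, Txndc16 and Prdx3 had 1 probe set each. Settings that change the choice of probe set could therefore not alter their calls. Txnip had 2 probe sets and Txndc9 had 3.

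Genes that feed the same reactions were counted from 6 lists outside the naming rule, with 108 of their 113 genes on the array. Of these, 57 were above background at P0 and 56 at E12.5, 14 were at least 4-fold higher at P0 (against 9.24% of all named genes) and 9 at E12.5 (against 7.3%). Under the spike-in scaling these counts were 11 at P0 and 18 at E12.5, and with the mean over probe sets 8 at P0 and 5 at E12.5. All named genes gave 1043 at P0 and 2122 at E12.5 under the first setting, and 863 and 700 under the second. The shares of all named genes, 9.24% at P0 and 7.3% at E12.5, are the background for each list below. A call needs a signal above background, which 71 of the 108 genes had in at least 1 cell, against 40.0% of all named genes.

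Among 20 further glutathione enzymes and carriers, 3 were called higher at P0 and 0 at E12.5, or 2 and 1 in that order under the spike-in scaling. Glutathione synthetase (Gss), the second enzyme of glutathione synthesis, had 1542 at P0 and 69.8 at E12.5, at least 5.98-fold higher at P0. A second Gss probe set was not called, and the call was lost under the spike-in scaling (log2 ratio of 1.71) and quantile normalisation (1.60). The microsomal transferase Mgst1 had 5810 at P0 and 683 at E12.5, 8.51-fold higher at P0 (log2 ratio of 1.29, not called, with the mean over probe sets), and Gstcd was at least 9.15-fold higher there.

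Of 17 NADPH supply genes, 2 were called higher at P0 and 1 at E12.5, or 1 and 5 in that order under the spike-in scaling. Nnt, the transhydrogenase that makes mitochondrial NADPH, had 19595 at P0 and 871 at E12.5, 22.5-fold higher at P0, and a second probe set was called as well. The isocitrate dehydrogenase gene Idh1 was 5.56-fold higher at P0 (9232, against 1661 at E12.5). A second Idh1 probe set was not called, and the call was lost under the spike-in scaling (log2 ratio of 1.60) and with the mean over probe sets (1.80). Mthfd2l, a folate enzyme of mitochondria, was at least 6.83-fold higher at E12.5 (log2 ratio of -1.25, not called, with the mean over probe sets). Of the pentose phosphate genes, Pgd had 1481 at P0 and 4780 at E12.5, and Tkt 6925 at P0 and 14134 at E12.5, both less than 4-fold apart.

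NRF2 partners and regulators, 17 genes, had 2 called higher at P0 and 5 at E12.5, or 1 in each cell with the mean over probe sets, which put Bach1, Bach2, Mafg, Crebbp and Gsk3b below background in both cells. The repressors Bach1 and Bach2, which compete with NRF2 for its element, were higher at E12.5 by at least 6.09-fold (Bach1) and at least 5.69-fold (Bach2), and the DNA-binding partner Mafg by at least 4.72-fold. Crebbp, a coactivator, was 7.05-fold and Dpp3, which binds KEAP1, 8.67-fold higher at E12.5. The kinase genes Fyn (at least 27.2-fold) and Gsk3b (at least 23.9-fold) were higher at P0. Of 5 further Gsk3b probe sets, 4 were below background in both cells and 1 was above it at E12.5 alone (58.5 at P0, 437 at E12.5), on the other side of the call. Both probe sets of Fyn and of Dpp3 were called, and all further ones of Bach1, Bach2, Mafg and Crebbp were below background. Cul3, the scaffold of the ligase that KEAP1 serves, had 7504 at P0 and 7481 at E12.5.

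In the list of other oxidant defence genes, 2 of 20 were called higher in each cell, or 1 at P0 and 3 at E12.5 under the spike-in scaling and 0 at P0 and 1 at E12.5 with the mean over probe sets. Sestrin genes, known from stress signalling, were opposed: Sesn1 was at least 26.0-fold higher at P0 and Sesn3 at least 28.1-fold higher at E12.5, while the mean over probe sets kept both directions below 4-fold (log2 ratios of 1.48 and -1.74). The metallothionein gene Mt2 was at least 6.12-fold higher at E12.5. Oxr1 was 7.01-fold higher at P0 by the reported probe set (5102, against 728 at E12.5) while another was higher at E12.5 (4011, against 877 at P0). Park7, which guards against oxidative stress in neurons, had 5954 at P0 and 11201 at E12.5.

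Of 18 genes for selenoproteins and their synthesis, 4 were called higher at P0 and 0 at E12.5, or 2 at E12.5 under the spike-in scaling, and 2 at P0 with the mean over probe sets, which left Selenof and Selenoi below background. Selenos, a selenoprotein of the endoplasmic reticulum, was at least 32.1-fold higher at P0 with all 3 probe sets called, Pstk, a kinase that prepares the selenocysteine tRNA, at least 13.9-fold, Selenof 8.54-fold and Selenoi at least 8.52-fold. Of 16 protein disulfide isomerase genes, 9 were above background in both cells and less than 4-fold apart, Tmx1 was at least 30.7-fold higher at P0 with both probe sets, and Pdia5 at least 9.53-fold higher at E12.5.

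**Figure D4:**
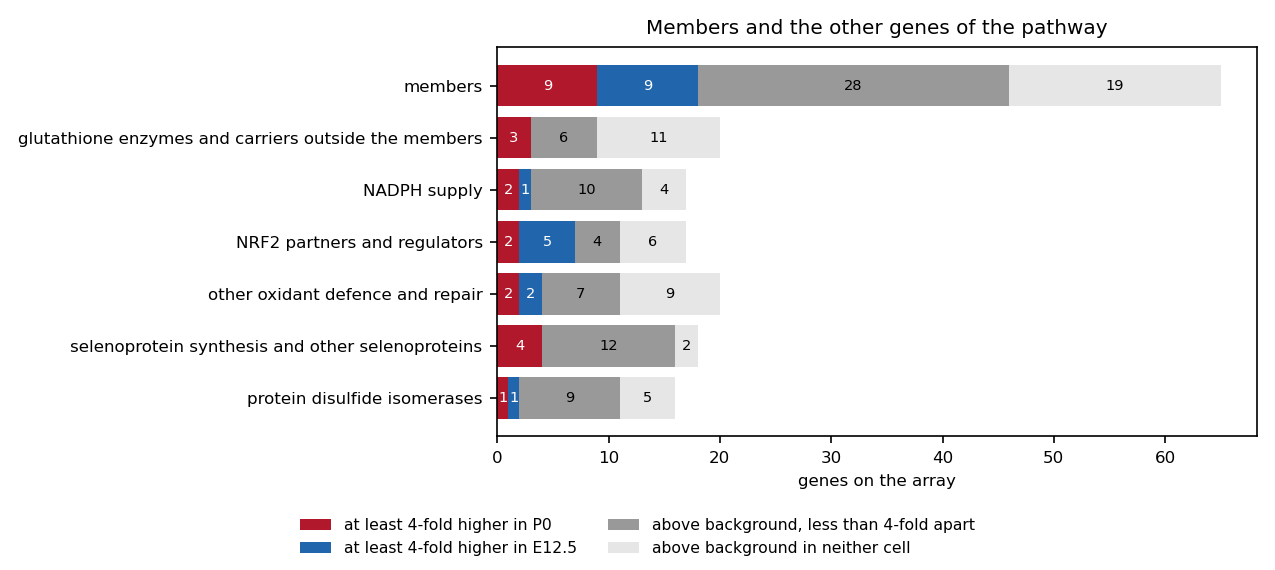
Number of genes in each list that were called higher at P0, called higher at E12.5, above background but less than 4-fold apart, or above background in neither cell. Bars start at 0 and end at the number of genes on the array, 65 for the members and 16 to 20 for the other lists.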

How the data were processed

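Single cells were amplified by PCR and read on Affymetrix arrays, 1 array per cell. Per the submitters' processing notes, the authors used MAS5. It gave 1 linear intensity per probe set, the unit of the deposited table. The mean over probe sets without the outer 2% at each end was 500.0 in both arrays, so each had been scaled to the same level. The sources used here give no version, settings or genome build, and the table has no detection calls. Intensity has no read depth.

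Symbols came from GEO's platform annotation, which gave 34958 probe sets 1 symbol, 932 several and left 9211 unlisted. Of the 34958, 34754 were looked up by gene identifier in RefSeq GRCm38.p6 and 204 kept the platform's symbol. Limits, calls and alternatives were computed with Python 3.11.15, numpy 2.4.6 and pandas 2.3.3 and tested on simulated data. The members and the lists were chosen with earlier results of these data known. Named are all members above background in at least 1 cell, the genes of the other lists at least 4-fold apart, and, chosen after their values were seen, Pgd, Tkt, Cul3 and Park7. Alternatives changed the limit, the scaling, the choice of probe set, the floor, the filter and the fold.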

Additional observations from a re-analysis of the deposited data

Results flagged for a closer look

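Probe sets annotated to several genes name no gene and were left out of every comparison above, yet 10 of them carry a symbol that matches the naming rule beside another symbol. Of these, 8 were above background in both cells, which drew attention to them as signal outside the main measurement. Their signals lay between 3129 and 16757 at P0 and between 1513 and 15410 at E12.5. Their log2 ratios of P0 over E12.5 ran from -0.09 to 2.10, and 1 of the 8 reached 4-fold, with a ratio of 4.28.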

How the results depend on the processing

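No paired analysis was possible because each age has 1 cell, and no replicate could be left out. The count of members at least 4-fold higher at E12.5, 9 as reported, was 14 under each of 4 settings (95th percentile as the limit, bacterial control probe sets as the limit, the spike-in scaling, a pseudocount of 100), 22 with no filter, 16 at 2-fold, 3 at 8-fold and 4 with the mean over probe sets. Over all named genes this count was 1328 as reported and 2012, 2004, 2122 and 1894 under those 4 settings in that order. It was 4115 with no filter, 2280 at 2-fold, 582 at 8-fold and 700 with the mean over probe sets. The count for the P0 cell, 9 as reported, was 5 at 8-fold and 16 with every probe set counted. For all named genes it was 1681 as reported and 936 at 8-fold. With every probe set counted the unit is the probe set, so the 16 are of 120 member probe sets. Of the 34958 probe sets with 1 symbol, 2522 were called at P0 in that setting. There, 54 of the 120 member probe sets were above background at P0, 57 at E12.5 and 38 in both. The median log2 ratio of the measured members was -1.39 with the spike-in scaling and 0.07 with the mean over probe sets. Of the other pathway genes, 14 and 9 were called at P0 and at E12.5 as reported, against 8 and 5 with the mean over probe sets and 25 and 22 with no filter, and 18 at E12.5 with the spike-in scaling. At P0, all named genes gave 863 with the mean over probe sets and 3924 with no filter. The direction turned for Sod2 (log2 ratio of 2.82 with the mean over probe sets and 5.10 with the probe set of highest signal in either cell, a choice added after seeing the data), for Oxr1 (-0.86 with the mean) and, below 4-fold, for Gsto1 (0.63 with the mean), Cat (0.35 with the mean) and the 4 members named above for the spike-in scaling. With the mean over probe sets Gstm7, Keap1, Nfe2l2, Txnl1, Txnrd1 and Txnrd3 were below background in both cells and lost their call. Of the 18 called members, 8 were called the same way under each alternative that kept the 4-fold rule, and 5 of these at 8-fold too. All of the 8 but Txnip and Txndc9 had 1 probe set, so the choice of probe set could not alter their calls. The causes of these changes were not tested. Signal over background limits the folds: for 15 of the 18 called members the dimmer cell was below its limit.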
